A study of Mus musculus with 53 samples.

Results

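The genes described here are 7 products of fat cells measured in mouse sciatic nerve (SCN), a tissue whose outer sheath carries adipocytes. They were taken by symbol from the deposited files, 7 of 49568 genes listed, as 4 genes named obesity-responsive (Lep, Mest, Nnat and Sfrp5) and 3 named constitutive adipocyte products (Adipoq, Retn and Cfd). These names rest on how the genes behave in obesity, so the genes were chosen by their measured differences between the diets and after reversal, and those differences are given as a description, without a test. The 53 samples came from male C57BL/6J mice in 8 groups. SD mice ate a standard diet (13% of kcal from fat in the series' design text, where the study's diet table has a lower percentage) and were sampled at 16 weeks (n = 5) and 24 weeks (n = 8). HFD mice ate 60% of kcal from fat from 5 weeks of age, without streptozotocin, and were sampled at 16 weeks (n = 7) and 24 weeks (n = 7). HFD-STZ mice ate the same diet and at 12 weeks received streptozotocin, a toxin of pancreatic beta cells, at 75 mg/kg and then 50 mg/kg 3 days later, with sampling at 16 weeks (n = 5) and 24 weeks (n = 8). HFD-DR (n = 7) and HFD-STZ-DR (n = 6) mice were moved at 16 weeks to the standard diet for 8 weeks, a dietary reversal, and were sampled at 24 weeks. No allele or transgene was involved, and every mouse given streptozotocin had also eaten the high-fat diet.

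Leptin, encoded by Lep, is the hormone by which adipocytes report stored fat to the brain. Mest, an imprinted member of the alpha/beta hydrolase family, and Nnat (neuronatin), an imprinted membrane protein of the endoplasmic reticulum, are expressed in adipose tissue that is enlarging. Sfrp5 is a secreted antagonist of Wnt ligands. Adiponectin (Adipoq), resistin (Retn, a cysteine-rich hormone of mouse adipocytes) and adipsin (Cfd, complement factor D, the serine protease that cleaves factor B in the alternative complement pathway) are secreted by mature adipocytes. In the nerve, adipocytes lie mainly in the epineurium, beside Schwann cells, fibroblasts, macrophages and vessels.

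On GRCm38, in GENCODE M21, Lep lies on chromosome 6 from 29060220 to 29073877 and Mest on chromosome 6 from 30723547 to 30748465, both on the plus strand. Nnat lies on chromosome 2 from 157560078 to 157562522 on the plus strand, inside the gene Blcap on the opposite strand, with 0 of its 1829 exonic bases shared with Blcap exons. Mest shares 912 of its 3945 exonic bases (23.1%) with Copg2 on the opposite strand, and the library kit in the study's methods did not keep strand, so reads there could belong to either gene. Sfrp5 is on chromosome 19 from 42197971 to 42202252 on the minus strand. Adipoq (chromosome 16, 23146536 to 23158028), Retn (chromosome 8, 3655770 to 3660110) and Cfd (chromosome 10, 79890853 to 79892655) are on the plus strand and overlap no other annotated gene. All 7 genes passed the filter on low values.

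The 250 bases before the RefSeq start of Lep, Adipoq, Cfd and Nnat are shown because these are the genes whose levels the results turn on: Lep and Nnat differed most between the diets at 16 weeks, Adipoq varied with the adipocyte markers and Cfd was lower in HFD nerve at 24 weeks. Letters are from RefSeq on GRCm38.p6, at chr6:29059971-29060220, chr16:23146286-23146535, chr10:79890603-79890852 and chr2:157559828-157560077, all plus strand, read 5′ to 3′. Capitals mark matches, on either strand, to 4 short motifs. They are TTGCGCAA (a palindromic form of the C/EBP motif), the CCAAT box, the nuclear receptor motif AGGTCA and the core promoter motif TATAA.
Lep: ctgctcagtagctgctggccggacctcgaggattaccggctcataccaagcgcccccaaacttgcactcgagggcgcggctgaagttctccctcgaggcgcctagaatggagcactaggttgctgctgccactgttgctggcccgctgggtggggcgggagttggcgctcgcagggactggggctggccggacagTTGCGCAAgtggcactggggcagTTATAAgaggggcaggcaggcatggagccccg
Adipoq: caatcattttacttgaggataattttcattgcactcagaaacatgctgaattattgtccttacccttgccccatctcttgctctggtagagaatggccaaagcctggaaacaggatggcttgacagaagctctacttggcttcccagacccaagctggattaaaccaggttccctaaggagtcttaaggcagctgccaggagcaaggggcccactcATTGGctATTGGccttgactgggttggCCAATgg
Cfd: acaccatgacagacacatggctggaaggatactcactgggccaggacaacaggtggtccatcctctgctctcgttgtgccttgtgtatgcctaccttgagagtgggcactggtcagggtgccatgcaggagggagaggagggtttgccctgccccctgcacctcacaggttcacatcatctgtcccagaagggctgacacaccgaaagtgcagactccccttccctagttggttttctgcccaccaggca
Nnat: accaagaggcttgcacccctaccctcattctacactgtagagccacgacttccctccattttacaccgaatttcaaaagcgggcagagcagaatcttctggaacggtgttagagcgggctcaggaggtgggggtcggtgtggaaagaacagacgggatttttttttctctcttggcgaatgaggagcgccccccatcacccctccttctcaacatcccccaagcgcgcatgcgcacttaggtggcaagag

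The Lep sequence held TTGCGCAA at 55 to 48 bases before the start and overlapping TATAA matches on both strands at 32 to 27 bases. TTGCGCAA was in 54 of 32851 promoters of the same length (0.164%). The Adipoq sequence held CCAAT or its reverse complement 3 times within 34 bases of the start, and 33.8% of all promoters held it at least once. TATAA was in 22.8% and AGGTCA in 14.0% of promoters. In Cfd and Nnat none of these letters was found. A match is a description of the letters and not evidence of a bound factor.

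Values below are the deposited log2 values. A difference of 1 is read as a doubling, and fold ratios are given on that reading. Details of the scale are not stated, so the ratios hold only if the values are plain log2 values without a further transformation. Levels are compared between groups of the same gene only, because the values are not per length. Sample medians over the 18069 genes above the filter ranged from 9.04 to 9.33. Of the 25 genes left out for a value above 22, 23 reached it in HFD-STZ 24wk replicate 7 and 2 in HFD 24wk replicate 1. None of the 7 genes was among them. Mean log2 values of the 11 adipocyte markers ranged over samples from 7.60 to 10.92 in SD 16wk, from 9.19 to 11.59 in SD 24wk and from 9.88 to 12.37 in HFD 24wk. Skeletal muscle markers, genes of a tissue next to the nerve, ranged from 6.49 to 15.93 over the samples, with the highest group mean in HFD-DR 24wk (11.82). In whole nerve, fewer adipocytes and less RNA per adipocyte cannot be told apart.

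Lep had the widest span of group means among the 7 genes (5.58 on the log2 scale). Its SD 16wk values were 6.60, 6.62, 7.58, 8.65 and 9.52. HFD 16wk ran from 9.69 to 14.50 with a median of 12.16, so all 7 HFD nerves lay above all 5 SD nerves. HFD-STZ 16wk samples were at 10.26, 7.67, 10.61, 10.88 and 12.32, 4 of 5 above every SD sample. At 24 weeks SD nerve ran from 7.56 to 11.56 (median 10.43), HFD from 11.52 to 15.09 (median 13.75) and HFD-STZ from 9.82 to 14.19 (median 12.98). After reversal the range was 7.47 to 12.58 (median 9.86) in HFD-DR and 6.34 to 10.18 (median 8.93) in HFD-STZ-DR, and both reversed groups overlapped SD. In group means, Lep was higher by 4.57 ± 0.76 (SE) in HFD than in SD at 16 weeks, a 23.8-fold ratio, and by 3.30 ± 0.64 at 24 weeks, a 9.82-fold ratio. In HFD-STZ it was higher by 2.55 ± 0.79 at 16 weeks and by 2.51 ± 0.64 at 24 weeks. HFD-DR was below HFD by 3.55 ± 0.84 on the log2 scale (11.7-fold) and HFD-STZ-DR below HFD-STZ by 3.80 ± 0.69 (13.9-fold). Ordered by mean, Lep ran HFD 24wk, HFD-STZ 24wk, HFD 16wk, HFD-STZ 16wk, SD 24wk, HFD-DR, HFD-STZ-DR and SD 16wk, and only the gap between HFD 16wk and HFD-STZ 16wk (2.02) exceeded the SD of the groups beside it.

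Nnat separated the diets at 16 weeks in both high-fat groups. SD 16wk nerves were at 7.34, 7.91, 8.35, 8.33 and 8.34 and HFD 16wk nerves ran from 10.58 to 12.60 (median 11.65). HFD-STZ 16wk nerves were at 10.72, 8.94, 11.43, 11.59 and 12.67. Both high-fat groups therefore lay wholly above SD at that age. The mean was higher by 3.61 ± 0.32 in HFD (12.2-fold) and by 3.02 ± 0.54 in HFD-STZ (8.10-fold). At 24 weeks SD nerve itself spread from 7.77 to 11.72 (median 10.11), and HFD (10.02 to 12.93, median 11.32) and HFD-STZ (10.52 to 13.23, median 12.70) overlapped it. The differences were 1.48 ± 0.59 and 2.28 ± 0.55. After reversal the ranges were 7.85 to 12.44 (median 10.62) in HFD-DR and 7.76 to 11.34 (median 9.61) in HFD-STZ-DR, lower than the unreversed groups by 1.51 ± 0.72 and 2.65 ± 0.53. Blcap, the gene around Nnat, differed from SD in the same direction by smaller amounts, 0.24 ± 0.08 (HFD) and 0.10 ± 0.08 (HFD-STZ) at 16 weeks and 0.08 ± 0.11 and 0.25 ± 0.10 at 24 weeks. After reversal it was at -0.11 ± 0.12 in the HFD model and at -0.31 ± 0.08 in the HFD-STZ model.

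Mest had a narrow range in SD nerve and was higher in mean on the high-fat diet. SD 16wk values were 8.82, 8.49, 8.63, 9.10 and 9.31, and SD 24wk ran from 8.72 to 9.46 (median 9.18). HFD ran from 8.79 to 11.73 (median 9.91) at 16 weeks and from 9.37 to 12.48 (median 10.95) at 24 weeks. HFD-STZ was at 9.43, 8.83, 9.13, 9.68 and 10.70 at 16 weeks and ran from 8.75 to 12.32 (median 10.94) at 24 weeks. At 24 weeks 6 of 7 HFD and 7 of 8 HFD-STZ nerves were above every SD nerve. The mean differences from SD were 1.50 ± 0.43 (HFD) and 0.69 ± 0.30 (HFD-STZ) at 16 weeks, and 1.79 ± 0.37 and 1.84 ± 0.36 at 24 weeks. Reversed nerves ran from 8.72 to 10.17 (median 9.46, HFD-DR) and from 8.40 to 9.41 (median 8.81, HFD-STZ-DR), below the unreversed groups by 1.54 ± 0.43 and 2.17 ± 0.42. The spread of Mest was also wider on the high-fat diet, with an SD of 1.13 in HFD 24wk against 0.26 in SD 24wk. Copg2, whose exons overlap those of Mest, differed from SD at 16 weeks in the same direction by 0.27 ± 0.11 (HFD) and 0.22 ± 0.15 (HFD-STZ), and at 24 weeks by -0.04 ± 0.07 and -0.04 ± 0.09. After reversal it was at -0.15 ± 0.09 in the HFD model and at 0.04 ± 0.11 in the HFD-STZ model.

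**Figure D1:**
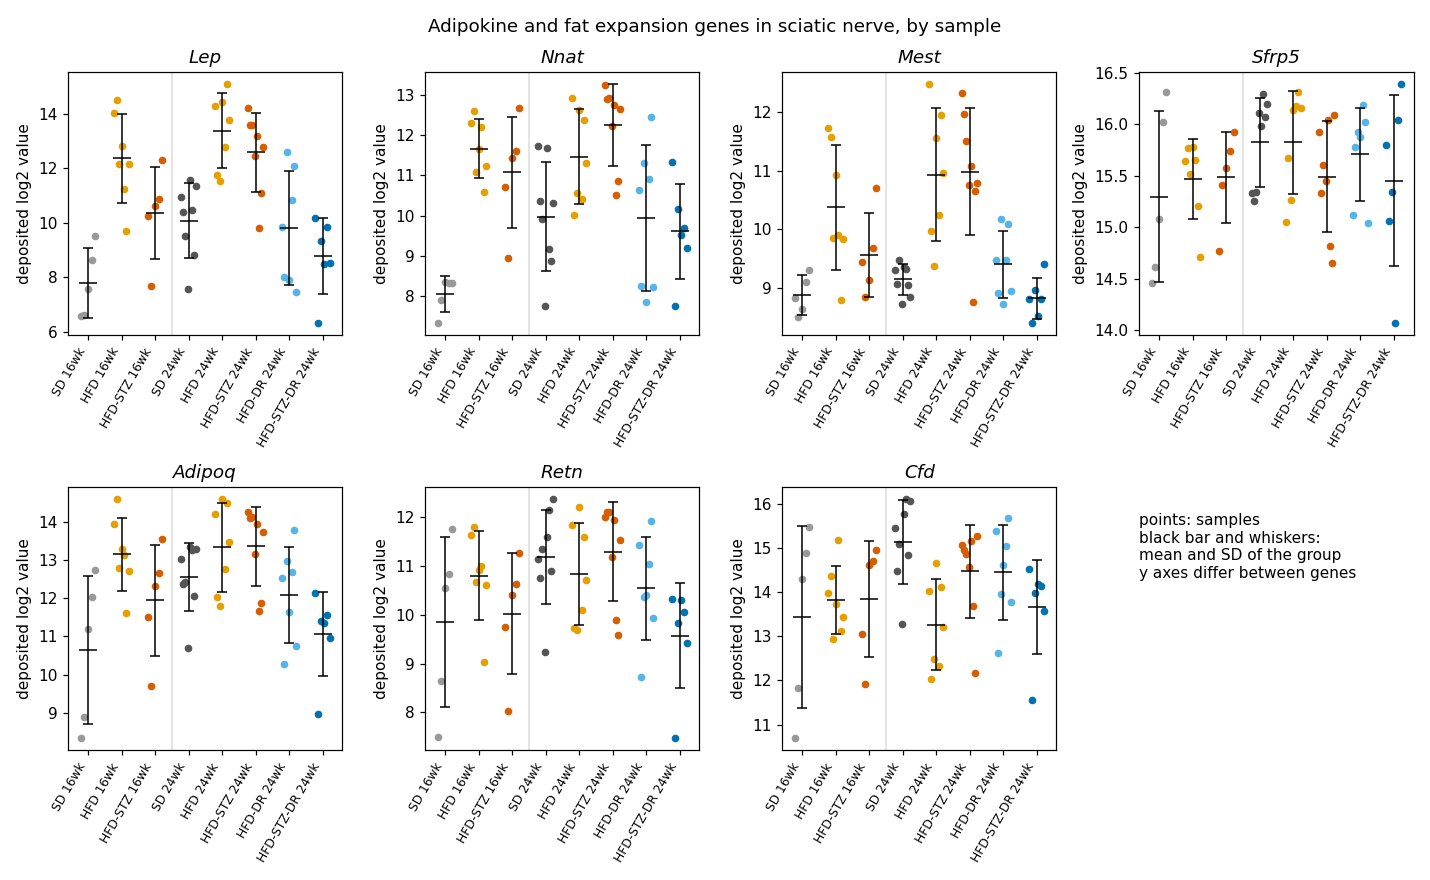
Deposited log2 values (y axis) of the 7 genes in every SCN sample of the 8 groups (x axis), with the mean and SD of each group in black. Lep, Nnat and Mest stand higher in mean in the HFD and HFD-STZ groups than in the SD and reversed groups, Sfrp5 stays near 15.5 throughout, and Cfd is lowest in mean in HFD 24wk (13.26).

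Sfrp5 did not behave as its class name says. Its group means lay between 15.30 and 15.83, a span of 0.53 against a pooled SD of 0.56, where the means of Lep spanned 5.58 and those of Nnat 4.20. SD 16wk was at 14.46, 14.61, 15.08, 16.02 and 16.31 and HFD-STZ 16wk at 14.77, 15.41, 15.58, 15.74 and 15.93, while HFD 16wk ran from 14.72 to 15.78 (median 15.65). At 24 weeks the medians were 16.03 in SD (15.26 to 16.29), 16.14 in HFD (15.05 to 16.32), 15.52 in HFD-STZ (14.65 to 16.09), 15.88 in HFD-DR (15.04 to 16.18) and 15.57 in HFD-STZ-DR (14.07 to 16.39). All 8 groups overlapped. The 6 diet and reversal differences ran from -0.33 ± 0.23 (HFD-STZ v SD at 24 weeks) to 0.19 ± 0.35 (HFD-STZ v SD at 16 weeks). On these values Sfrp5 is better called by its symbol than as obesity-responsive. Minus the adipocyte marker mean, a scale described below, Sfrp5 was lower in HFD than in SD at 16 weeks by 1.67 ± 0.35, without overlap. Sfrp5 itself differed there by 0.17 ± 0.31, while the marker mean was 11.09 in HFD and 9.24 in SD. The difference on that scale thus came from the markers, and the share of all genes without overlap on it was not computed. On that scale the groups overlapped in the other diet and reversal comparisons.

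Adipoq was higher in mean on the high-fat diet at both ages, with wide spreads. SD 16wk nerves were spread over 8.34, 8.89, 11.21, 12.03 and 12.74. HFD 16wk ran from 11.61 to 14.60 (median 13.13), and HFD-STZ 16wk was at 11.50, 9.70, 12.33, 12.66 and 13.55. The high-fat groups overlapped SD at that age. At 24 weeks the ranges were 10.70 to 13.34 in SD (median 12.74), 11.79 to 14.60 in HFD (median 13.49) and 11.67 to 14.27 in HFD-STZ (median 13.86). Means were higher than in SD by 2.52 ± 0.72 and 1.31 ± 0.90 at 16 weeks and by 0.78 ± 0.48 and 0.80 ± 0.44 at 24 weeks, for HFD and HFD-STZ. Reversal brought 10.29 to 13.80 (median 12.54) in HFD-DR and 8.97 to 12.15 (median 11.38) in HFD-STZ-DR, lower by 1.24 ± 0.57 and 2.30 ± 0.52. Adipoq was thus not constant across these nerves, although it is grouped with the constitutive products.

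Retn moved less. SD 16wk was at 7.50, 8.64, 10.54, 10.83 and 11.75 and HFD-STZ 16wk at 9.75, 8.04, 10.41, 10.63 and 11.27, and HFD 16wk ran from 9.03 to 11.78 (median 10.91). At 24 weeks SD ran from 9.23 to 12.36 (median 11.24), HFD from 9.68 to 12.21 (median 10.70) and HFD-STZ from 9.58 to 12.10 (median 11.73). These groups overlapped, with differences from SD of 0.95 ± 0.66 (HFD) and 0.17 ± 0.79 (HFD-STZ) at 16 weeks and of -0.35 ± 0.47 and 0.11 ± 0.45 at 24 weeks. HFD-DR ran from 8.72 to 11.91 (median 10.41), lower than HFD by 0.29 ± 0.50. HFD-STZ-DR ran from 7.48 to 10.33 (median 9.94), and it was the reversed group that differed most from its unreversed one, by -1.72 ± 0.51.

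Cfd took a course of its own. SD 16wk was at 10.69, 11.84, 14.29, 14.88 and 15.47, HFD 16wk from 12.93 to 15.18 (median 13.73) and HFD-STZ 16wk at 13.04, 11.92, 14.61, 14.69 and 14.96. At that age the high-fat groups lay inside the SD range, with differences of 0.38 ± 0.72 and 0.41 ± 0.91. At 24 weeks SD ran from 13.27 to 16.10 (median 15.26) and HFD from 12.02 to 14.66 (median 13.21), and 4 of 7 HFD nerves were below every SD nerve. HFD was lower than SD by 1.87 ± 0.46 on the log2 scale (3.65-fold) while Lep in the same nerves was higher. HFD-STZ (12.16 to 15.27, median 14.91) was lower than SD by 0.67 ± 0.46. HFD-DR (12.62 to 15.68, median 14.62) was higher than HFD by 1.18 ± 0.49 and HFD-STZ-DR (11.56 to 14.52, median 14.05) lower than HFD-STZ by 0.81 ± 0.52. Cfd at 24 weeks therefore goes against the name constitutive in HFD nerve.

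**Figure D2:**
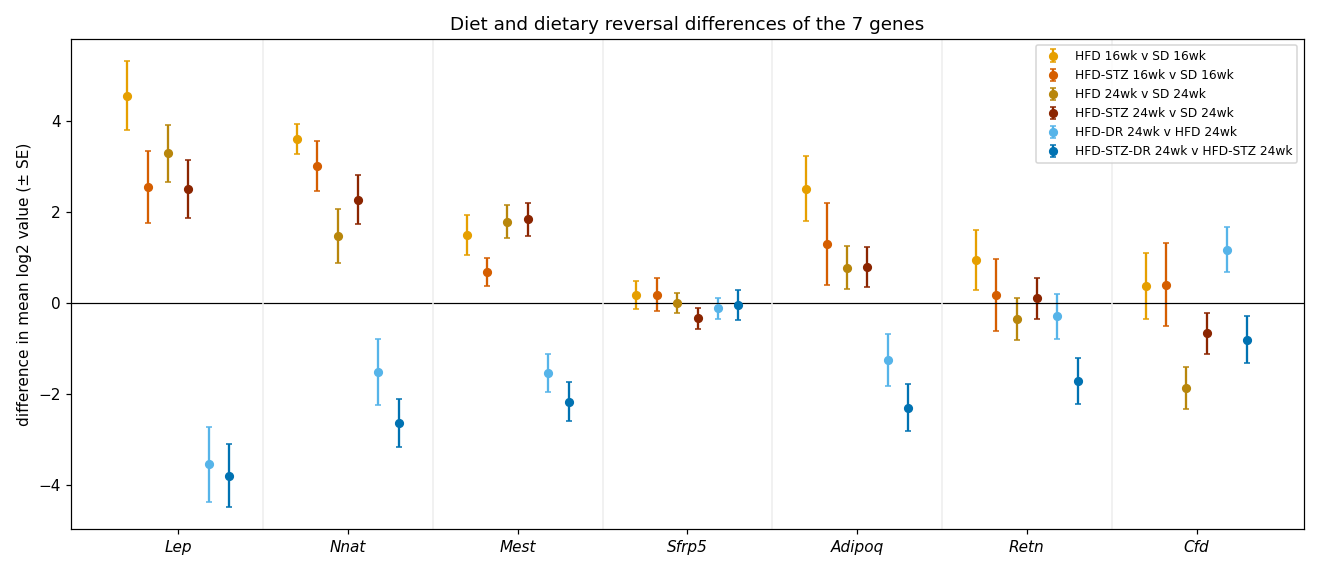
Differences in mean log2 value (y axis, ± SE) of the 7 genes (x axis) in the 4 comparisons of a high-fat group with SD of the same age and the 2 comparisons of a reversed with an unreversed group. Lep, Nnat and Mest are above 0 in all 4 diet comparisons and below 0 in both reversals, Sfrp5 is near 0 in all 6, and Cfd is at -1.87 for HFD v SD at 24 weeks.

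In the comparison of HFD with SD at 16 weeks, 2 of the 7 genes (Lep and Nnat) had groups that did not overlap, where 0.562% of the 17962 genes tested did, and at adjusted p under 0.05 in limma, over all genes, 0.00557% were called. For HFD-STZ v SD at 16 weeks the 1 such gene was Nnat, against 2.09% of all genes. In the other 4 diet and reversal comparisons 0 of 7 had groups that did not overlap, where the share of all genes was 0.253% (HFD v SD at 24 weeks), 0.0616% (HFD-STZ v SD at 24 weeks), 0.119% (HFD-DR v HFD) and 0.23% (HFD-STZ-DR v HFD-STZ). These comparisons chose the genes, and nothing is read from the counts. The comparisons with HFD 24wk and HFD-STZ 24wk share those nerves between diet and reversal, and both diet comparisons of an age share its SD nerves.

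To place each gene beside the adipocyte content of the same nerve, the mean log2 value of 11 adipocyte markers (Plin1, Plin4, Cidec, Fabp4, Lipe, Acvr1c, Aqp7, Adrb3, Pck1, Pparg and Cebpa) was subtracted. Of these 11 markers, 11 were higher in HFD than in SD at 16 weeks (median difference 1.62), 9 at 24 weeks (median 0.48), and 11 were lower after reversal in the HFD-STZ model (median -1.75), and 0 passed the test in any of the 3. The median over all genes tested was within 0.02 of 0 in each. Relative to the markers, Lep went from -1.45 ± 0.30 (SD, n = 5) in SD 16wk to 1.28 ± 1.20 (n = 7) in HFD 16wk and from -0.73 ± 0.63 (n = 8) in SD 24wk to 2.12 ± 0.43 (n = 7) in HFD 24wk, and was at -0.58 ± 1.41 (n = 7) in HFD-DR. All 7 HFD nerves lay above all 8 SD nerves at 24 weeks on this scale (1.39 to 2.75 against -1.63 to -0.03). The share of all genes whose groups did not overlap on this scale was not computed. Adipoq stayed between 1.40 and 2.14 in all 8 group means, but was not constant. At 24 weeks it was higher than in SD by 0.33 ± 0.10 (SE) in HFD and by 0.38 ± 0.08 (SE) in HFD-STZ, with overlapping groups. HFD-STZ-DR lay wholly below HFD-STZ, by 0.54 ± 0.13 (SE).

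Cfd on the same scale was 4.32 ± 0.35 in SD 24wk (n = 8) and 2.00 ± 0.25 in HFD 24wk (n = 7) and stood at 4.03 ± 0.54 (n = 7) in HFD-DR, with HFD 24wk samples from 1.77 to 2.35 below all SD 24wk samples (3.61 to 4.64) and all HFD-DR samples (3.03 to 4.72). At 16 weeks it was 4.19 ± 0.74 in SD (n = 5) and 2.73 ± 0.70 in HFD (n = 7). Nnat relative to the markers was -1.19 ± 1.08 in SD 16wk and 0.58 ± 0.39 in HFD 16wk, and Retn went from 0.37 ± 0.41 in SD 24wk to -0.42 ± 0.22 in HFD 24wk. Mest was not higher on this scale at 16 weeks, at -0.37 ± 1.19 in SD and -0.72 ± 0.62 in HFD. At 24 weeks it was at -1.67 ± 0.73 in SD and -0.32 ± 0.40 in HFD. These again are diet differences and were not tested, and the share of all genes without overlap on this scale was not computed.

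**Figure D3:**
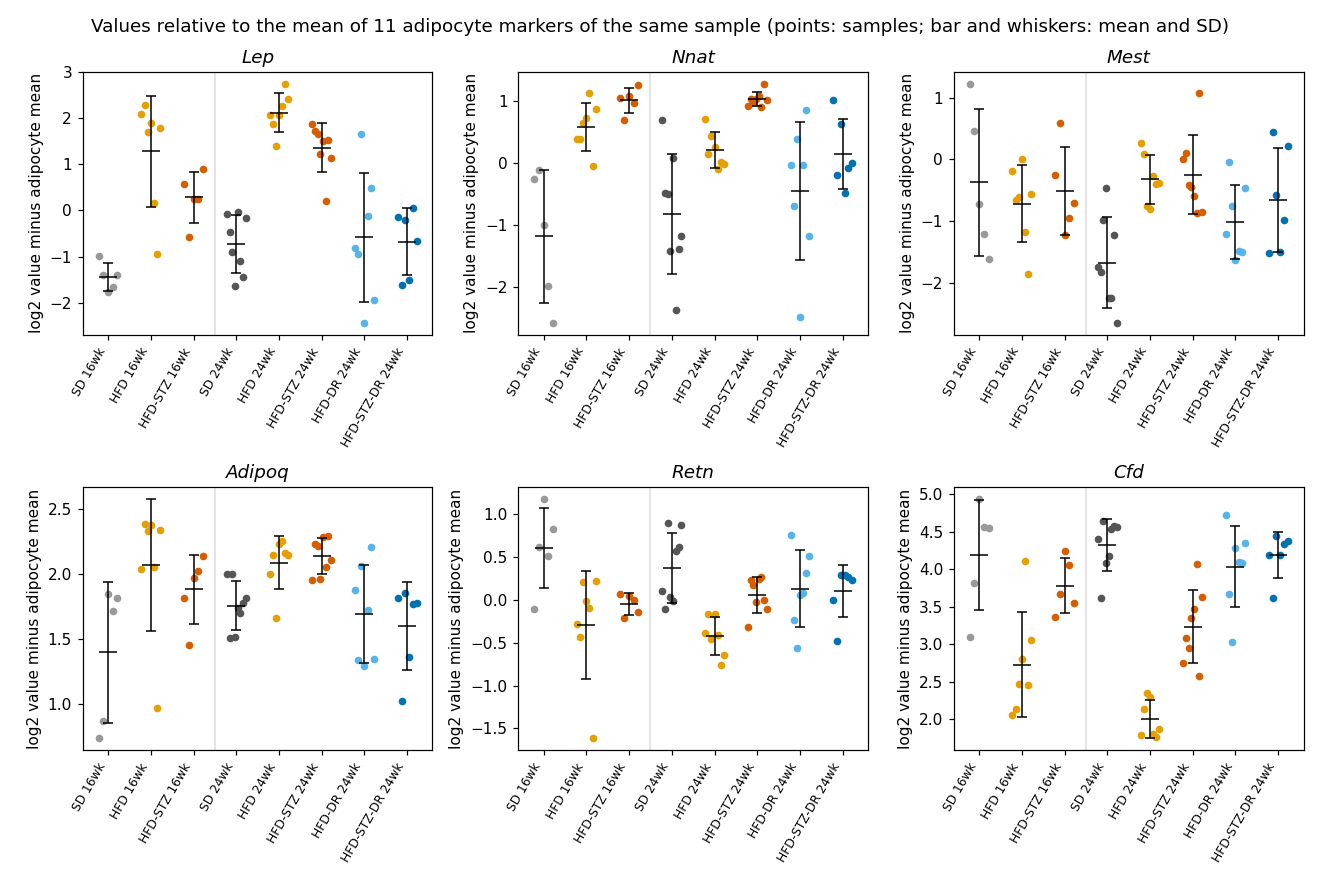
Log2 value of 6 genes minus the mean of 11 adipocyte markers of the same nerve (y axis) by group (x axis), 1 point a sample, with the group mean and SD in black. Lep stands above the SD groups in HFD 24wk (1.39 to 2.75), Cfd stands lowest there (1.77 to 2.35), and the HFD-STZ 24wk values of Nnat (0.90 to 1.27) and Cfd (2.58 to 4.07) lie above all HFD 24wk values.

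The question whether streptozotocin changed these genes on the same diet was not used to choose them and could be tested. By limma's adjusted p over all genes, 0 of the 7 genes passed in any of the 3 comparisons of HFD-STZ with HFD mice, in which 0% of all genes were called at each (889, 1013 and 652 genes had an unadjusted p under 0.05). Cfd in HFD-STZ 24wk was higher than in HFD 24wk by 1.20 ± 0.49 (adjusted p = 0.785, exact permutation p = 0.0494, two-sided, n = 8 and 7). Lep at 16 weeks was lower in HFD-STZ by 2.02 ± 0.82 (adjusted p = 0.987, exact permutation p = 0.0732, n = 5 and 7), and in all 3 comparisons the groups overlapped for all 7 genes, where 0.28% (16 weeks), 0.0331% (24 weeks) and 0.0605% (after reversal) of all genes did not.

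Set against the adipocyte markers of the same nerve, HFD-STZ and HFD at 24 weeks did differ for 3 genes, in tests added after the values had been seen. Nnat minus the markers was between 0.90 and 1.27 in the 8 HFD-STZ nerves and between -0.10 and 0.71 in the 7 HFD nerves, a difference of 0.82 ± 0.11 with no overlap (exact permutation p = 0.000311, two-sided, the smallest that 8 against 7 samples can give, and 0.0087 after Benjamini-Hochberg adjustment over 56 tests). Cfd was between 2.58 and 4.07 in HFD-STZ and between 1.77 and 2.35 in HFD, a difference of 1.23 ± 0.21 with no overlap (exact permutation p = 0.000311, adjusted 0.0087). How many of all genes had no overlap on this scale was not computed. Retn was higher by 0.49 ± 0.11 with overlapping groups (exact permutation p = 0.00155, adjusted 0.029). Lep was lower by 0.76 ± 0.25 (exact permutation p = 0.00497, adjusted 0.0696). Library numbers in the labels fall into runs that hold about 1 nerve of each group. In the 7 runs with both groups, the HFD-STZ nerve was higher in 7 of 7 for Retn and lower in 7 of 7 for Lep. It was also higher in 7 of 7 for Nnat and Cfd, but this was fixed in advance because their groups do not overlap. Nnat and Cfd stayed under 0.05 with any of the 15 nerves left out, while Retn kept this only without HFD 24wk replicate 2, 3 or 4 or HFD-STZ 24wk replicate 1, 4 or 8, and was above 0.05 without any of the other 9 (largest adjusted p 0.0622). No other of the 56 tests passed. At 16 weeks, HFD-STZ minus HFD on this scale was 1.05 ± 0.35 for Cfd and 0.43 ± 0.19 for Nnat (exact permutation test, adjusted p 0.131 and 0.169). After reversal the adjusted p of that test was 0.757 for Cfd and 0.529 for Nnat.

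With the marker mean as a covariate in limma, over all 18117 genes, 3 genes were called in HFD-STZ 24wk v HFD 24wk (0.0166%), and 2 of them were Nnat (0.82 ± 0.11, adjusted p = 0.0214) and Cfd (1.23 ± 0.19, adjusted p = 0.0464). The other was Cck, which encodes the peptide cholecystokinin (-1.11 ± 0.17, adjusted p = 0.0464). The other 5 genes were not called, Retn (adjusted p = 0.309) and Lep (adjusted p = 0.34) among them. Other cell markers also differed in the same comparison, before the covariate. Neutrophil markers were 0 of 6 above 0 (median -0.93), macrophage markers 0 of 6 (median -0.40) and neuronal markers 4 of 4 (median 0.44), 0 of them passed the test, and their part in the Nnat and Cfd differences was not tested. For the neuronal markers this was not a shift of the whole group. Their mean over the list had a median of 7.43 in HFD-STZ 24wk nerves, with the highest nerve at 12.69, against a median of 7.60 in HFD 24wk. Leaving out 1 nerve raised the adjusted p of Nnat above 0.05 in 10 of 15 fits and that of Cfd in 11 of 15. The Cfd call held without HFD 24wk replicate 1 or 4 or HFD-STZ 24wk replicate 6 or 7, the Nnat call without these or HFD 24wk replicate 3, and each was lost without any other nerve (largest adjusted p 0.189 for Cfd and 0.0982 for Nnat). Over the 15 fits the Nnat difference ran from 0.77 to 0.91 and the Cfd difference from 1.11 to 1.37. Of the 56 such member tests on the same diet, 2 passed.

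**Figure D4:**
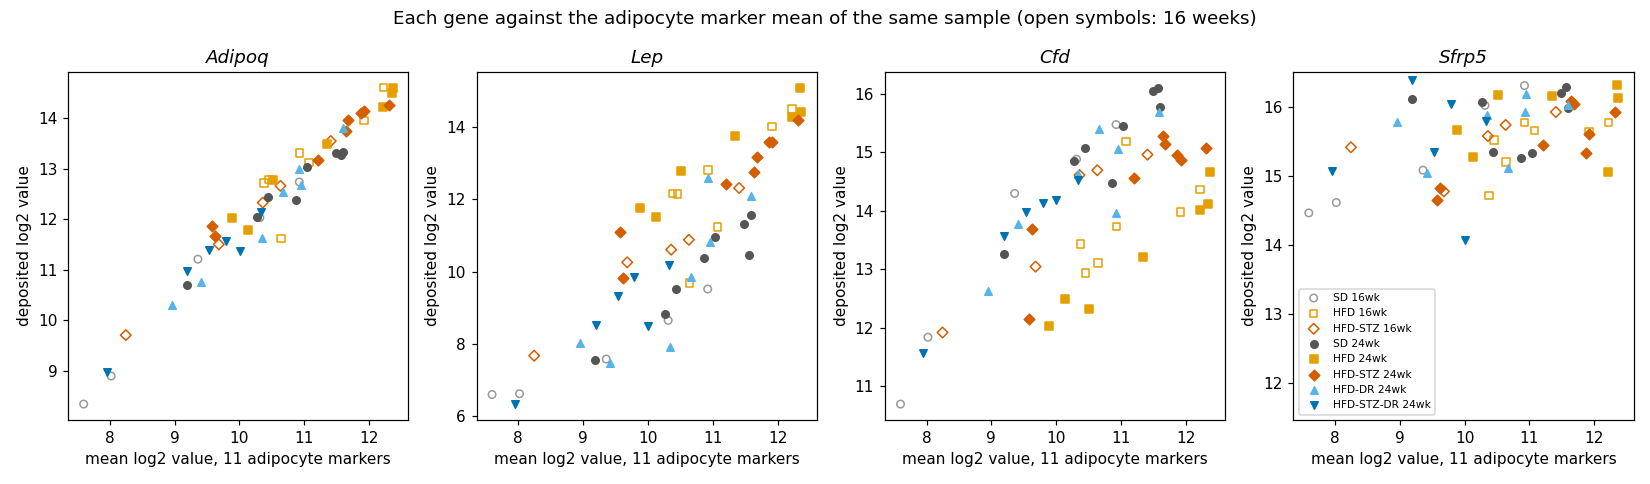
Log2 value of Adipoq, Lep, Cfd and Sfrp5 (y axes) against the mean log2 value of 11 adipocyte markers (x axis), 1 point for each of the 53 nerves, with open symbols for 16 weeks. Adipoq lies along 1 line, and at a like marker level the HFD nerves of 24 weeks lie above the SD nerves of that age for Lep and below them for Cfd. Sfrp5, on a y axis extended downward, has the narrowest range of these genes and still rises with the markers within groups (r = 0.50).

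Age was also tested on the same diet. Between 16 and 24 weeks in SD nerve, Lep was higher by 2.28 ± 0.67, Nnat by 1.92 ± 0.56 and Adipoq by 1.92 ± 0.69, with exact permutation p of 0.0171, 0.0124 and 0.042 (two-sided, n = 8 and 5) and adjusted p in limma of 0.353, 0.353 and 0.437. In HFD-STZ nerve, Lep was higher at 24 weeks by 2.24 ± 0.78 and Mest by 1.42 ± 0.49, with exact permutation p of 0.0311 and 0.0342 (n = 8 and 5) and adjusted p in limma of 0.308 and 0.304. In HFD nerve no member had an exact permutation p under 0.05, and Cfd was lower by 0.56 ± 0.43 (adjusted p in limma 0.892). In limma 0% of all genes were called in SD (1862 with an unadjusted p under 0.05) and in HFD-STZ (2251), and 0.0654% in HFD. None of the 7 genes passed. The adipocyte marker mean also differed with age, at 9.24 in SD 16wk and 10.81 in SD 24wk. With it as a covariate, the SD differences between ages were 0.51 ± 0.34 for Lep, 0.99 ± 0.59 for Nnat and -0.02 ± 0.17 for Adipoq (adjusted p in limma 1.0 for each), and those in HFD-STZ nerve 0.66 ± 0.22 for Lep and 0.61 ± 0.35 for Mest (adjusted p in limma 0.247 and 0.337). Lep minus the markers was higher at 24 weeks by 0.72 ± 0.31 in SD nerve (exact permutation p = 0.0404, adjusted 0.169) and by 1.07 ± 0.31 in HFD-STZ nerve (exact permutation p = 0.0109, adjusted 0.102).

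After reversal, nerves were compared with SD 24wk. HFD-STZ-DR nerve was lower than SD for Adipoq by 1.50 ± 0.48, for Retn by 1.61 ± 0.49 and for Cfd by 1.47 ± 0.48, with exact permutation p of 0.014, 0.0127 and 0.0186 (two-sided, n = 6 and 8) and adjusted p in limma of 0.395, 0.378 and 0.4. Lep was lower by 1.29 ± 0.66 (exact permutation p = 0.111, adjusted p in limma 0.599). Relative to the adipocyte markers the means were 1.60 and 1.76 for Adipoq, 0.10 and 0.37 for Retn, 4.19 and 4.32 for Cfd and -0.68 and -0.73 for Lep in HFD-STZ-DR and SD, and the marker mean was 9.47 and 10.81. Mest, Nnat and Sfrp5 were higher than in SD on this scale, by 1.01 ± 0.42, 0.97 ± 0.44 and 0.97 ± 0.55. Their exact permutation p was 0.0366, 0.0453 and 0.111 (adjusted 0.169, 0.169 and 0.295), and each was lower than SD in deposited mean. In HFD-DR nerve the exact permutation p of the deposited values was above 0.2 for all 7 genes, and Cfd was lower by 0.69 ± 0.47 (exact permutation p = 0.209). Over the 8 same-diet comparisons, 0 of 56 member tests passed in limma, 14 had an unadjusted p under 0.05 there and 9 an exact permutation p under 0.05. Differences smaller than their SE (16 of 56) are not given singly.

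The diet difference was also set beside itself at the other age, and the reversal difference beside that of the other model, without a test because these contrasts chose the genes. Of 21 such values fitted without the covariate, only the 4 largest relative to their SE are given, so they are extremes and not the general pattern. The HFD difference at 24 weeks minus that at 16 weeks was -2.13 ± 0.77 for Nnat and -2.25 ± 0.88 for Cfd. With the adipocyte marker mean as covariate it was -1.05 ± 0.55 for Nnat and -0.74 ± 0.41 for Cfd. The HFD-STZ difference at 24 weeks minus that at 16 weeks was 1.16 ± 0.54 for Mest, and 1.33 ± 0.41 with the covariate. The reversal difference of Cfd with streptozotocin minus that without was -1.99 ± 0.75, and -1.10 ± 0.32 with the covariate.

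Within groups, the 7 genes varied together from nerve to nerve. Deviations from the group means of the 53 nerves were correlated for 28 relations, 21 between members and 7 with the adipocyte marker mean, with p from 100000 permutations within groups. With the marker mean, Pearson's r was 0.97 for Adipoq, 0.94 for Retn, 0.91 for Cfd, 0.88 for Lep, 0.82 for Nnat, 0.70 for Mest and 0.50 for Sfrp5, and Spearman's rho was 0.98, 0.94, 0.87, 0.90, 0.82, 0.77 and 0.55. For all but Sfrp5 the permutation p was 1e-05, the smallest it can be, and 1.4e-05 after Benjamini-Hochberg adjustment. For Sfrp5 it was 0.0012 (adjusted 0.0014) for r and 0.00022 (adjusted 0.00026) for rho. Without the 2 nerves farthest from the median of the marker mean, r was 0.97, 0.93, 0.89, 0.87, 0.80, 0.71 and 0.48 in the same order. Lep followed Nnat (r = 0.89, rho = 0.87) and Adipoq (r = 0.91, rho = 0.93) within groups, both with a permutation p of 1e-05, and r was 0.87 and 0.92 without the 2 nerves farthest out. The weakest relation was Nnat with Sfrp5 (r = 0.25, permutation p = 0.07, adjusted 0.07, rho = 0.29, permutation p = 0.035, adjusted 0.035). Each pair of values comes from the same library and the same dissected piece of nerve.

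Over all 53 nerves, group differences included, the genes most like each member among 18062 others were found by Pearson's r, as a description. Adipoq was most like Cidec (0.99), a lipid droplet protein, Serpina3c (0.98) and Tmem45b (0.98). Lep was most like Cd1d1 (0.95), Prr16 (0.95) and Slc16a12 (0.95), Nnat like Gm15519 (0.91), Plin4 (0.90), a lipid droplet coat protein, and 2610016A17Rik (0.87), and Mest like Lpgat1 (0.93), Gm5627 (0.93) and 1700047G03Rik (0.93). Retn was most like Mrap (0.94), the accessory protein of melanocortin receptors, Mgst1 (0.94) and Car3 (0.93), and Cfd like Ces1f (0.93), Cyp2e1 (0.92) and Pon1 (0.90), 3 genes also known from liver. Sfrp5 was most like Fmod (0.97), a collagen-binding proteoglycan, Gas6 (0.97), the ligand of TAM receptors, and Eya2 (0.97). Adipoq and Nnat thus each had 1 of the adipocyte markers among their 3 nearest genes, while Sfrp5, Lep, Mest, Retn and Cfd had none.

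Other genes of the same pathways were tested in all comparisons by limma. Of 16 gene lists, 1 gene was called in 1 comparison: Klf14, an imprinted transcription factor gene known from adipose tissue, lower in reversed than unreversed HFD-STZ nerve (-2.21 ± 0.34, adjusted p = 0.0409), where 0.084% of all genes were called. Klf14 ran from 4.34 to 6.77 (median 5.69) in HFD-STZ 24wk and from 3.17 to 3.65 (median 3.40) in HFD-STZ-DR, which lay wholly below. It was 1 of 22 imprinted genes tested, and 14 of the 22 had a difference below 0 (median -0.11). In the other comparisons 0 of the list genes were called, where the share of all genes was 0.121% in HFD v SD and 0.0336% in HFD-STZ v SD at 24 weeks, 0.0108% in HFD-DR v HFD and 0% in HFD-STZ v SD at 16 weeks (1504 genes with an unadjusted p under 0.05).

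In HFD v SD at 24 weeks, the lists on the receiving side of the hormones showed small differences. Of 8 genes of the leptin receptor and its signalling, 8 were below 0 (median -0.12), led by Sh2b1, an adaptor of JAK2 (-0.19 ± 0.06, adjusted p in limma 0.317), and Stat5a (-0.15 ± 0.08, adjusted p in limma 0.589). Of 8 adiponectin receptors and assembly factors, 6 were below 0 (median -0.03), with Cdh13, the T-cadherin receptor, at -0.46 ± 0.32 and Adipor1 at -0.11 ± 0.08. Of 4 resistin family and receptor genes tested, 4 were above 0 (median 0.22), with Retnlg at 0.68 ± 0.77 and Cap1 at 0.15 ± 0.15. In the alternative complement pathway, where Cfd acts, 9 of 10 were above 0 (median 0.29), with the inhibitor protease Cfi at 0.67 ± 0.21 (adjusted p in limma 0.317) and C3 at 0.38 ± 0.19, while Cfd itself was lower. Cfi lay near the filter on low values, with means of 3.71 in HFD 24wk and 3.04 in SD 24wk. It passed the filter only through the HFD nerves, so its direction was favoured in advance and nothing is read from it. The median of all genes tested was 0.01.

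Among the other adipokines in the same comparison, 8 of 13 were above 0 (median 0.02), with Angptl4, an inhibitor of lipoprotein lipase, at 0.71 ± 0.21 (adjusted p in limma 0.266). Of the Sfrp family and Wnt pathway genes, 8 of 14 were above 0 (median 0.04), with Wif1, a Wnt-binding inhibitor, at 0.38 ± 0.19 and Lrp5 at 0.22 ± 0.13. Of 22 imprinted genes 10 were above 0 (median -0.06), with Klf14 at 1.23 ± 0.32 (adjusted p in limma 0.178) and Peg3 at 0.48 ± 0.15 (adjusted p in limma 0.317).

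Markers of the cells around the adipocytes were set beside these values. In HFD v SD at 24 weeks, 6 of 6 macrophage markers were above 0 (median 0.29), with Cd68 at 0.62 ± 0.28 and Adgre1 at 0.33 ± 0.27, and 6 of 6 neutrophil markers (median 0.97), with S100a8 at 1.98 ± 0.81 and Mpo at 0.98 ± 0.67. Schwann cell markers were 2 of 9 above 0 (median -0.12), with Egr2 at -0.37 ± 0.14 and Mag at -0.24 ± 0.12. Adipose progenitor markers were 0 of 5 above 0 (median -0.12), with Cd34 at -0.15 ± 0.20 and Pdgfra at -0.12 ± 0.21. Skeletal muscle markers were 0 of 10 above 0 (median -1.55), with Tnni2 at -2.04 ± 1.37 and Tnnt3 at -1.93 ± 1.18. Of 4 brown adipocyte markers tested 1 was above 0 (median -0.51), with Cidea at -0.94 ± 0.87 and Cox8b at -0.90 ± 0.79. Of 4 neuronal markers tested 4 were above 0 (median 0.26), with Rbfox3 at 0.63 ± 0.17 and Syt1 at 0.32 ± 0.25. The adipocyte markers with the smallest p were Plin4 (1.18 ± 0.43) and Cidec (1.09 ± 0.49). None of these marker genes was called, and the part of other cells in the member differences was not tested.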

How the data were processed

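The samples were 53 sciatic nerve samples, with polyadenylated RNA sequenced by the authors. The labels name Trizol and a TruSeq mRNA kit for the libraries, the study's methods another kit that keeps no strand. The deposited files, 1 per sample, hold 1 log2 value for each of 49568 genes. Per the labels, HISAT2, featureCounts, DESeq2 and mm10 were used, with versions not given in the sources used here, and the values are taken as normalised by the authors on a log2 scale whose details are not stated. The study's methods give an approximate read number per sample, but the files hold no counts or totals, so no counting interval is given. Whether same-group samples were processed apart is not stated, and p-values measure the spread between these samples.

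Groups came from the labels. Genes with a mean under 10 on the linear scale in the samples of a fit, and genes with any log2 value above 22, were left out. Differences, standard errors and adjusted p were computed with limma 3.58.1 (R 4.3.3, lmFit and eBayes with trend, Benjamini-Hochberg over all genes tested, threshold 0.05), with only the groups compared in a fit. Single genes were also tested by exact two-sided permutation in scipy 1.17.1 (Python 3.11.15). The fits were tested on simulated data. Named genes are the 7 members, the list genes called in any comparison, the 2 genes of each list with the smallest p in HFD v SD at 24 weeks, and for each member the 3 most correlated genes. For the list of other adipokines, 1 of the 2 genes is not reported here. Members, gene lists and tests were chosen with earlier results of these data known. Alternatives were no filter, all 8 groups in 1 fit with and without the library-number run, centring on sample medians, the adipocyte marker mean as covariate, and leaving out each sample. The covariate outside the diet comparisons, the tests of values minus the adipocyte markers and the correlations without HFD-STZ 24wk replicate 7 were added after the data had been seen.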

Additional observations from a re-analysis of the deposited data

Results flagged for a closer look

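Each gene was checked in each of the 8 groups for a sample whose gap to its neighbour, over the range of the group, exceeded Dixon's 95% critical value, 56 checks in all, of which chance flags about 1 in 20. There were 5 such values, and 3 of them were in the same nerve, HFD-STZ-DR 24wk replicate 2, which was lowest for Adipoq (8.97), Retn (7.48) and Cfd (11.56). That nerve also had the lowest adipocyte marker mean of its group (7.95). The others were the lowest Mest value in HFD-STZ 24wk, replicate 6 (8.75), and the lowest Retn value in HFD 16wk, replicate 6 (9.03). The causes were not tested.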

How the results depend on the processing

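The diet and reversal differences of the 7 genes moved by less than the spread between replicates with no filter, with all 8 groups in 1 fit, with the library-number run, with median centring and with any sample left out. With the adipocyte marker mean as covariate, HFD v SD at 16 weeks came to 2.55 for Lep, 0.63 for Mest, 2.81 for Nnat, -0.76 for Sfrp5, 0.15 for Adipoq, -1.09 for Retn and -1.81 for Cfd, so those of Sfrp5, Retn and Cfd changed sign. HFD-STZ-DR v HFD-STZ came to -1.37 for Lep, -1.09 for Mest, -0.79 for Nnat, 0.51 for Sfrp5, -0.41 for Adipoq, 0.12 for Retn and 0.97 for Cfd, with changed sign for Sfrp5 (-0.04 as reported), Retn and Cfd. The cause was not tested. With 3 markers in place of 11, Adipoq minus the markers differed between HFD and SD at 24 weeks by 0.12 instead of 0.33. In the same-diet comparisons, 0 members passed in limma under any alternative without the covariate, and the differences larger than their SE kept their sign. With the covariate, leaving out 1 nerve moved the HFD-STZ v HFD difference at 24 weeks between 0.77 and 0.91 for Nnat and between 1.11 and 1.37 for Cfd, and the exact test of Retn minus the markers between 0.43 and 0.54. List genes called in HFD-STZ-DR v HFD-STZ were 1 as reported, 0 with no filter, 3 with all 8 groups in 1 fit, 3 with the library-number run, and 0 to 9 with 1 sample left out, with 9 reached without HFD-STZ 24wk replicate 6 or 7. In HFD-STZ v SD at 24 weeks and HFD-STZ-DR v SD they were 0 to 1 with 1 sample left out, and in SD 24wk v SD 16wk 1 with the library-number run. Over all genes, the calls under other settings ran from 1 to 16 (1 as reported) in HFD v SD and from 0 to 1 (0) in HFD-STZ v SD at 16 weeks, from 21 to 127 (22) and from 4 to 19 (6) at 24 weeks, from 0 to 27 (2) in HFD-DR v HFD, from 0 to 47 (15) in HFD-STZ-DR v HFD-STZ, from 0 to 4 (0) in HFD-STZ 24wk v HFD 24wk, from 0 to 122 (0) in SD 24wk v SD 16wk, from 6 to 33 (12) in HFD 24wk v HFD 16wk, from 0 to 30 (0) in HFD-STZ 24wk v HFD-STZ 16wk, and from 0 to 1 (0) in HFD-STZ-DR v SD. No correlation moved by 0.1 with median centring or without HFD-STZ 24wk replicate 7. The labels give no replicate numbers by which nerves of different groups could be paired. The library-number run was instead fitted as a term, and nerves were compared within runs, as given above. The files hold no counts, so counting error in low genes such as Klf14 could not be given.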
